A study of Malus domestica with 34 samples.

Results

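Leaves of well-watered apple seedlings were compared between a late and an early sampling of the same growing season. The comparison rests on 6 of the 34 libraries of the study, the 3 well-watered leaf libraries of the third sampling and the 3 of the first sampling, taken by their labels for tissue, watering regime and sampling. The plants were seedlings of Malus domestica from the 'Golden Delicious' doubled haploid GDDH18, a line whose chromosome copies are identical, grown in pots in a greenhouse. Seeds were sown in 3 blocks 1 week apart, each block was a biological replicate, and same-numbered libraries were taken to share a sowing. Well-watered plants (64) stayed near 80% soil water content throughout and never met a drought. Droughted plants (61) of the same line and sowings met 3 dry spells, each lasting 3 weeks with soil water held at 45% and followed by 3 weeks of full watering. The first and the third sampling followed the first and the third of these, and a last sampling took place in the next year, after a winter. The regimes began on plants 12 weeks old, so by this schedule the well-watered plants were about 27 weeks old at the third sampling and about 15 weeks old at the first. Plant age, season and time in the pot all advanced together between the samplings, and they cannot be told apart here. How many plants went into a library, and which leaves along the shoot were taken, is not given in the sources used here.

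A leaf passes from a growing organ that imports sugar to a mature one that exports it, and later to a senescing one that dismantles its chloroplasts and sends nitrogen back to the plant. Along this course, genes for cell division and expansion give way to genes for photosynthesis, and these in turn to genes for breakdown, transport and defence. A woody seedling also changes as a whole as its season advances, with shoot growth slowing before winter. The gene identifiers of the deposited table could not be paired with names, so these processes are given as background, and none of them was scored in the data.

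Each of the 18 leaf libraries was most like another leaf library, and each of the 16 root libraries most like another root library. Over genes with a mean log2 CPM of at least 1 across all libraries, the highest Spearman correlation between a leaf and a root library was 0.601. The lowest between leaf libraries was 0.865. The 6 libraries compared held between 29670542 and 52113106 counts each. Among the well-watered leaves of the third sampling, the library of block 2 stood apart. In it, 66 genes at 10 CPM (counts scaled to the size of the library) or more, each at least 8-fold above both other blocks, held 29.3% of all counts, against 1.92% in block 1 and 1.72% in block 3. In no other leaf library did these genes hold more than 3.76%, and in no root library more than 4.06%. Between the samplings 18 of these genes were called higher and 1 lower, where 8.52% and 7.27% of all tested genes were, and a choice by high values in a late library itself favours the higher calls. The comparison is given both with and without this library. In RNA from whole tissue, fewer cells of a type and less RNA per cell cannot be told apart.

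Between the samplings a broad set of leaf genes changed, and the genes that were higher late in the season had a larger median change than those that were lower. Of 32307 genes tested, 5100 (15.8%) passed edgeR's quasi-likelihood test at an adjusted p under 0.05, with all leaf libraries fitted together and the sowing block in the model. At the third sampling 2751 genes (8.52%) were higher and 2349 (7.27%) were lower than at the first. The median gene among those that rose was 2.71-fold higher, with an interquartile range of log2 changes of 0.98 to 1.88. The median gene among those that fell was 1.65-fold lower, with an interquartile range of -1.05 to -0.52. A change of at least 2-fold was seen in 2049 of the genes that rose and 647 of those that fell, at least 4-fold in 573 and 142, and at least 8-fold in 181 and 66. Without the block 2 library of the third sampling, these counts were 921 and 331, 261 and 131, and 75 and 83. The excess of rises was thus absent at 8-fold without that library. With all libraries, the median log2 change over all tested genes was -0.01. Among the genes that rose, 71 had 3 counts or fewer over the 3 libraries of the first sampling, and 32 of these had none. With such genes held at the limit that a group total of 3 counts allows, both medians stayed as they were, at 1.44 and -0.72. So few genes could hardly move a median, so this says nothing about their own fold changes.

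The called genes were chosen from these same libraries, so their counts by block describe them and test nothing. All 3 same-block pairs were higher for 2725 of the 2751 genes that rose, and for 22.5% of all tested genes. All 3 were lower for 2329 of the 2349 genes that fell, and for 24.1% of all tested genes. The 3 libraries of the third sampling all lay above the 3 of the first for 2566 of the genes that rose, while over all tested genes this held for 4878 (15.1%). They all lay below for 2237 of the genes that fell, while over all tested genes this held for 5390 (16.7%). Every pair changed at least 2-fold for 960 of the genes that rose and 259 of those that fell, while over all tested genes this held for 1139 (3.53%) and 343 (1.06%). The median log2 change of the genes that rose was 1.68 in block 1, 1.42 in block 2 and 0.96 in block 3, so block 3 moved least. For the genes that fell it was -0.71, -0.76 and -0.62.

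How many genes passed depended strongly on the libraries in the fit. Without the block 2 library of the third sampling, edgeR called 1772 of 32808 genes (5.4%), 1083 higher (3.3%) and 689 lower (2.1%). Of the genes called with all libraries, 1066 that rose and 649 that fell were called again. Leaving out the first-sampling library of block 1 gave 1739 calls, leaving out that of block 2 gave 2176, and leaving out both libraries of block 2 gave 187. Leaving the next-year leaves out of the fit gave 2157 calls (6.77%), 1434 higher (4.5%) and 723 lower (2.27%), and the 6 libraries fitted alone gave 11, 2 higher and 9 lower, with 6158 genes at an unadjusted p under 0.05. With the block 2 library and the next-year leaves both left out, 4 genes passed and 5677 had an unadjusted p under 0.05. The individual calls thus depended on the other leaf libraries in the fit as well as on those compared. Why the counts shifted was not tested. The paragraphs that follow give the measured levels beside the calls.

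By the rule for naming, the genes that rose are represented by MD06G1227300 and MD04G1047700. They had the largest changes among 606 genes that passed the test with and without the block 2 library, had a mean log2 CPM of at least 1, did not overlap between samplings and rose in every block. MD06G1227300 stood at 14.8, 33.7 and 22.6 CPM in blocks 1 to 3 at the third sampling, against 0.499, 1.51 and 0.585 CPM at the first. The lowest late library was thus far above the highest early one, and block 2 was highest at both samplings. Its log2 change was 4.93 (SE 0.98, edgeR adjusted p = 0.00927), and 4.49 without the block 2 library (adjusted p = 0.0365). The call was lost in the 6 libraries fitted alone without the block (adjusted p = 0.0901), with limma's quality weights (adjusted p = 0.0629) and without either library of block 2 (adjusted p = 0.0606), while the direction held in all 17 alternatives.

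MD04G1047700 stood at 111, 148 and 39.6 CPM at the third sampling, against 3.17, 8.77 and 6.37 CPM at the first. Again no early library reached a late one, but block 3 rose much less than the other two. The log2 change was 4.0 (SE 0.55, edgeR adjusted p = 0.00365), and 3.54 without the block 2 library (adjusted p = 0.0182). It lost its call only when the 6 libraries were fitted alone (adjusted p = 0.155 with the block and 0.105 without it).

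The genes that fell are represented by MD10G1026620 and MD06G1232610, the largest falls among 575 genes that met the same criteria. MD10G1026620 was at 0.807, 1.19 and 1.22 CPM at the third sampling, against 19.3, 54.5 and 16.6 CPM at the first. The late libraries were close together, and the early ones were spread over a wider range with block 2 highest. The log2 change was -4.51 (SE 0.86, edgeR adjusted p = 0.00986), and -4.21 without the block 2 library (adjusted p = 0.047). In the next year this gene had no count in any of the 3 well-watered leaf libraries. Its call was lost in the 6 libraries fitted alone (adjusted p = 0.112 with the block and 0.0958 without it) and without both libraries of block 1 or of block 2 (adjusted p = 0.0585 and 0.0944).

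MD06G1232610 was at 0.551, 3.1 and 0.448 CPM at the third sampling, against 11.9, 53.9 and 12.7 CPM at the first. Block 2 was the highest library at both samplings, and the samplings did not overlap. The log2 change was -4.28 (SE 0.87, edgeR adjusted p = 0.0117), and -4.90 without the block 2 library (adjusted p = 0.0366). This gene too had no count in the well-watered leaves of the next year. The call was lost in the 6 libraries fitted alone without the block (adjusted p = 0.138) and without both libraries of block 1 or of block 2 (adjusted p = 0.0581 and 0.0762).

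**Figure D1:**
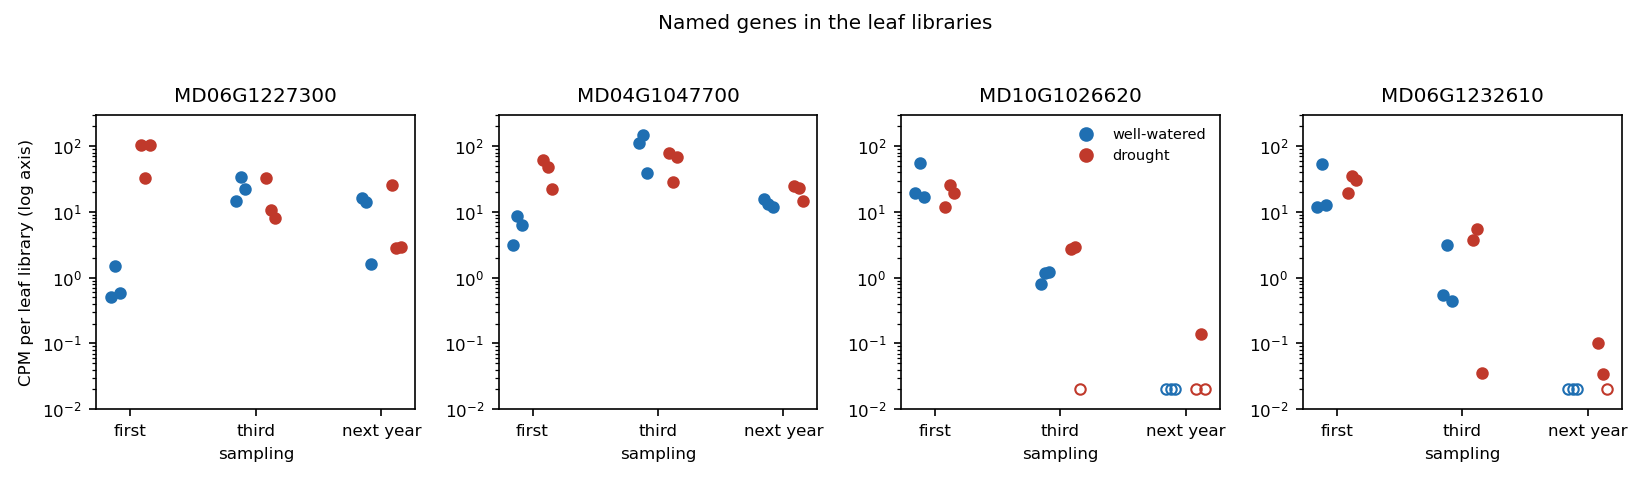
CPM of the 4 named genes in every leaf library (log axis) by sampling, with well-watered libraries in blue and droughted ones in red, and open circles at the bottom for libraries with 0 counts. MD06G1227300 and MD04G1047700 rose in the well-watered leaves, where the droughted leaves were already high at the first sampling, while MD10G1026620 and MD06G1232610 fell in both regimes and were at or near 0 in the next year.

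Setting the blocks against each other showed how far the season's change was common to them. Across 23222 genes with a mean log2 CPM of at least 1, the change in block 1 correlated with that in block 2 at r = 0.656 and with that in block 3 at r = 0.101, and the changes in blocks 2 and 3 correlated at r = 0.306. These values are across genes, which are not independent replicates, and each block's change comes from 1 library per sampling. Droughted leaves had the same order, with 0.65 between blocks 1 and 2, 0.168 between 1 and 3, and 0.307 between 2 and 3. Between the regimes, the changes of the same block correlated at 0.42, 0.264 and 0.5 for blocks 1 to 3, and those of different blocks at -0.368 to 0.303. Within each block the changes of both regimes correlated positively, and in both regimes the pairings with block 3 had the lower values. The late well-watered libraries of blocks 1 and 3 were each most like the late droughted library of their own block (Spearman 0.987 and 0.973). The late one of block 2 was most like the late well-watered one of block 1 (0.967), and the early one of block 3 most like the late droughted one of block 1 (0.971).

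**Figure D2:**
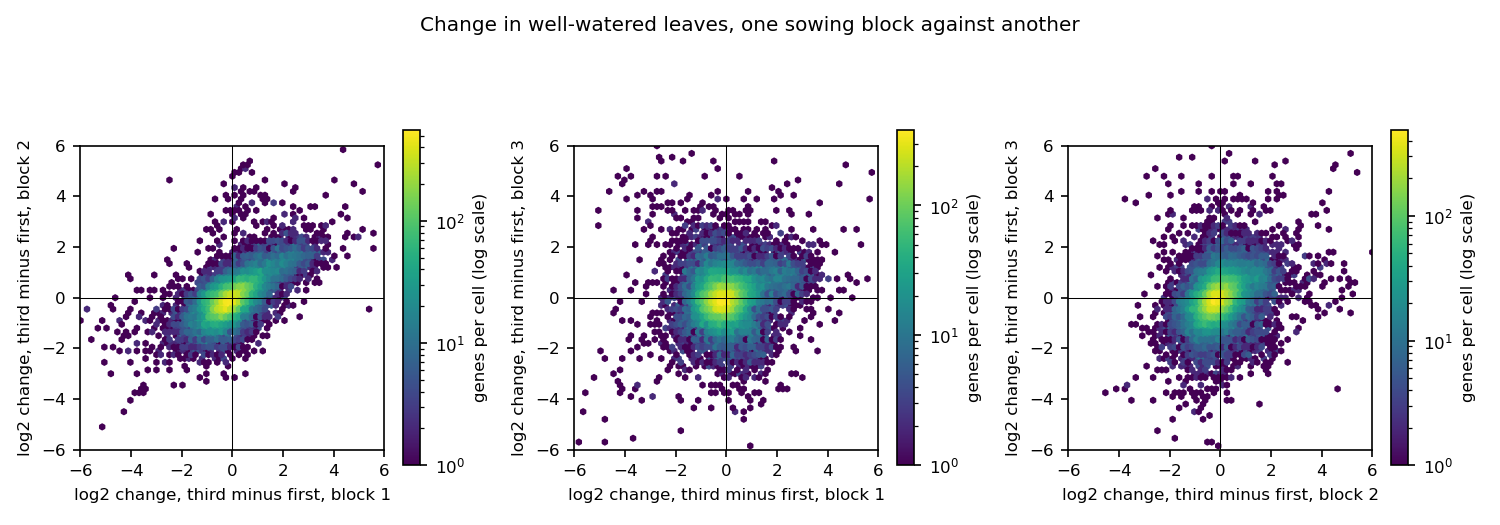
Log2 change between the third and the first sampling in well-watered leaves, 1 sowing block on each axis, as a density of genes with a mean log2 CPM of at least 1 (colour on a log scale, genes beyond the axes not drawn). The cloud runs along the diagonal for blocks 1 and 2 (r = 0.656) and is close to round for blocks 1 and 3 (r = 0.101).

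A choice of genes by fold alone does not use the estimated spread. Every same-block pair was at least 2-fold higher at the third sampling for 1139 of the 32307 genes (3.53%) and at least 2-fold lower for 343 (1.06%). With the block 2 pair left out, 1554 genes were at least 2-fold higher and 598 at least 2-fold lower in both remaining blocks. With RLE size factors in place of TMM the counts over all 3 pairs were 1190 and 323. In each case, more genes rose than fell by this margin in every block.

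In terms of RNA, genes that fell had held a large share of the leaf's counts. They took 23.1%, 14.4% and 22.1% of all counts in blocks 1 to 3 at the third sampling, against 32.2%, 31.0% and 30.8% at the first, or 19.9% ± 4.79 against 31.3% ± 0.741 (SD, n = 3 each). The low value at the third sampling is that of the block 2 library. Genes that rose took 2.91%, 6.18% and 3.4% at the third sampling, against 0.909%, 1.21% and 1.70% at the first, and here block 2 was the highest late library. These genes were chosen from the same 6 libraries, so the shares describe them and test nothing. In the next year, well-watered leaves held 31.1% ± 0.903 of their counts in the genes that had fallen and 2.23% ± 0.202 in those that had risen (SD, n = 3). The median log2 CPM over the genes that fell was 5.41 at the first sampling, 4.63 at the third and 5.10 in the next year. Over the genes that rose it was 0.68, 2.14 and 1.97.

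More genes were detected in the later leaves. At a common depth of 25974815 counts, the third sampling had 30397, 29744 and 30062 genes with at least 10 counts in blocks 1 to 3, against 27737, 28564 and 29399 at the first. Every late library lay above every early one, the means were 30068 ± 327 and 28567 ± 831 genes (SD, n = 3 each), and the exact two-sided permutation test gave p = 0.1, the smallest p that 3 against 3 allows. Droughted leaves averaged 30077 ± 262 genes at the third sampling and 28976 ± 320 at the first (SD, n = 3 each), and their samplings did not overlap either. In the next year the mean was 28638 ± 147 genes in well-watered and 28662 ± 363 in droughted leaves (SD, n = 3 each). The share of counts held by the 100 most abundant genes showed no such order: it was 18.5%, 39.1% and 21.2% at the third sampling, against 25.8%, 24.2% and 22.4% at the first (exact two-sided permutation p = 1). The value of 39.1% is that of the block 2 library, and without it the late libraries were the 2 lowest.

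**Figure D3:**
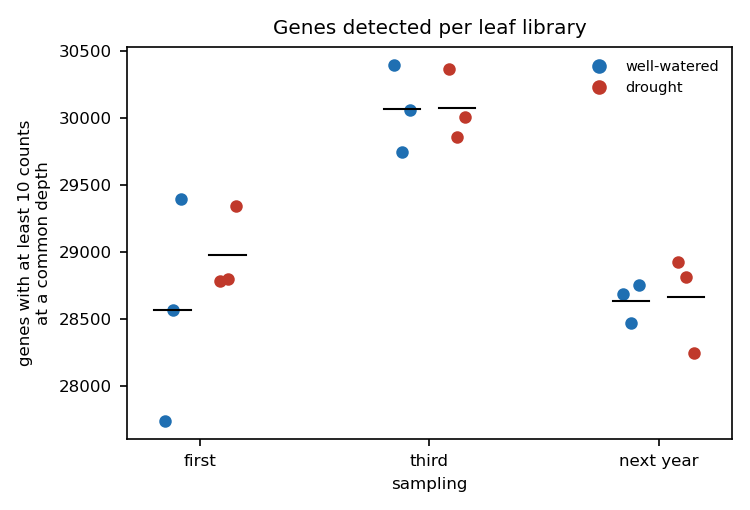
Number of genes with at least 10 counts per leaf library at a common depth of 25974815 counts, by sampling, with well-watered libraries in blue, droughted ones in red and black bars for group means. The y axis does not start at 0, and all late libraries of the first year, from 29744 to 30397 genes, lie above all early ones, from 27737 to 29399.

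Of the genes typical of leaf, more fell than rose. Among changes of at least 4-fold 32 fell and 75 rose, where 142 and 573 of all tested genes did. Genes were classed by level in droughted leaves and well-watered roots, so none of the 6 leaf libraries entered the classing. Of 2955 tested genes at least 8-fold higher in leaf than in root, 535 (18.1%) fell and 194 (6.57%) rose, with a median log2 change of -0.23. Of the 28165 genes between the classes, 1738 (6.17%) fell and 2517 (8.94%) rose, with a median of 0.00. The leaf-rich class made up 22.8% of the genes that fell and 9.15% of the genes tested. Without the block 2 library, 7.55% of leaf-rich genes fell and 2.5% rose, where 2.1% and 3.3% of all tested genes did. In droughted leaves, which had entered the classing, 17.3% fell and 10.4% rose, where 7.87% and 8.11% of all tested genes did. Leaf-rich genes rose more often than tested genes at large in droughted leaves, and less often in well-watered ones. The droughted shares come from libraries that set the class, so no difference between the regimes is read from them. With RLE size factors the median of the class was -0.21 and 16.2% fell, where 6.05% of all tested genes did. Of 1187 genes at least 8-fold higher in root, 76 (6.4%) fell and 40 (3.37%) rose, a lower share of rises than over all tested genes.

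The droughted leaves give a reading of the same interval in libraries that are neither side of the well-watered comparison. They are not fully separate from it, since they share the sowing blocks and entered the fit that supplied the spread and the block terms. There, edgeR called 5163 genes (16%), 2621 higher (8.11%) and 2542 lower (7.87%) at the third sampling. This count was 3063 without the first-sampling droughted library of block 1, 2087 without that of block 2, 2067 and 2710 without the third-sampling ones of blocks 2 and 3. It was 2383 (7.48%) without the next-year leaves, 1384 higher (4.34%) and 999 lower (3.14%), and 0 in the 6 libraries fitted alone (5392 at an unadjusted p under 0.05). Of the 2751 genes that rose in well-watered leaves, 71.5% were also higher in droughted leaves, while 49.1% of all tested genes were. Their median log2 change there was 0.24, and 251 (9.12%) were called higher, close to the 8.11% of all tested genes, and 51 (1.85%) lower. Of the 2349 genes that fell, 75.6% were also lower, while 50.9% of all tested genes were. Their median was -0.28, and 595 (25.3%) were called lower and 105 (4.47%) higher.

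The agreement in direction did not rest on the block 2 library. Genes chosen without it were higher in 78.3% of 1082 cases and lower in 85.7% of 687. Of 598 genes at least 2-fold lower in well-watered blocks 1 and 3, 101 (16.9%) were so in every droughted pair. Of 1554 genes at least 2-fold higher there, 89 (5.73%) were so in every droughted pair and 50 (3.22%) were lower by that margin. Over all tested genes, 3.33% were higher and 1.6% lower in this way. The gene lists that follow were chosen with the block 2 library. Within blocks 1 to 3, the median change in droughted leaves was 0.13, 0.32 and 0.25 for the genes that rose and -0.20, -0.23 and -0.38 for those that fell. Of the 343 genes at least 2-fold lower in every well-watered pair, 75 (21.9%) were also at least 2-fold lower in every droughted pair, while 1.6% of all tested genes were. Of the 1139 genes at least 2-fold higher in every well-watered pair, 64 (5.62%) were also at least 2-fold higher in every droughted pair, while 3.33% of all tested genes were, and 38 (3.34%) were at least 2-fold lower, while 1.6% of all tested genes were.

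**Figure D4:**
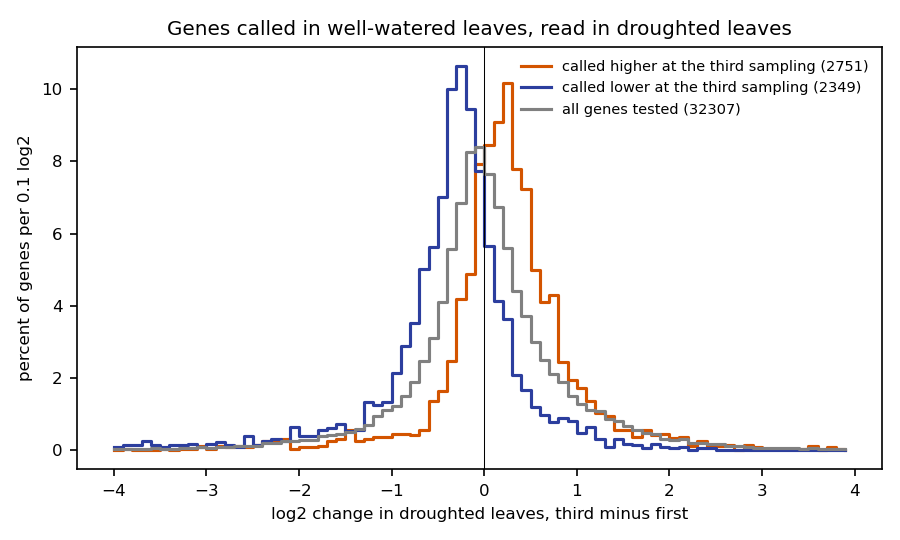
Log2 change between the third and the first sampling in droughted leaves (x axis, drawn from -4 to 4, with 175 tested genes beyond it) for genes called higher or lower in well-watered leaves and for all tested genes, as a percentage of each set per 0.1 log2. The genes called higher are centred to the right of 0 (median 0.24) and the genes called lower to the left (median -0.28).

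The change differed in size between the regimes for a smaller number of genes. The difference of the changes, well-watered minus droughted, passed the test for 1872 genes (5.79%), 770 of them positive (2.38%) and 1102 negative (3.41%). This contrast contains the well-watered libraries that chose the genes above, so only levels are set side by side. The median log2 CPM of the genes that rose was 2.14 in well-watered and 1.92 in droughted leaves at the third sampling, and 0.68 in well-watered and 1.67 in droughted leaves at the first. The low level of the early well-watered leaves follows from how these genes were chosen. The genes that fell stood at 4.63 in well-watered and 4.77 in droughted leaves at the third sampling, and at 5.41 in well-watered and 5.07 in droughted leaves at the first. The count of 1872 fell to 394 without the late well-watered library of block 2, to 760 without the early well-watered library of block 1, and to 738, 891 and 457 without droughted block 1 or 2 of the first or block 2 of the third sampling. With the next-year leaves left out of the fit it was 0 (edgeR, 6294 genes at an unadjusted p under 0.05), while DESeq2 with all leaf libraries called 4139.

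MD06G1227300 was at 33.3, 10.7 and 8.11 CPM in droughted leaves of the third sampling, against 104, 32.8 and 105 CPM at the first, a log2 change of -2.51 (edgeR adjusted p = 0.0605). Its difference of changes, well-watered minus droughted, was 7.45 on the log2 scale (SE 1.30). MD04G1047700 was at 79.3, 28.4 and 69.2 CPM in late droughted leaves, against 62.3, 49.0 and 22.1 CPM in early ones, a change of 0.57 (edgeR adjusted p = 0.46). Its difference of changes was 3.43 (SE 0.72). Both genes were named for their rise in the well-watered libraries, so these differences are given as a description with no test, and no gene passed this contrast without the next-year leaves. The named genes that fell did so in both regimes. MD10G1026620 changed by -3.44 (edgeR adjusted p = 0.02) and MD06G1232610 by -3.64 (edgeR adjusted p = 0.0177) in droughted leaves, with differences of changes of -1.07 and -0.64.

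The genes that moved at least 2-fold in all 6 same-block pairs, 3 of each regime, form a list that uses no estimated spread in either regime. The 64 that rose were scarce at the first sampling, with a median log2 CPM of -2.52, and stood at 0.34 at the third and at -0.22 in the next year. Of these, 56 were called in well-watered leaves and 36 without the block 2 library, counts that the choice by the same pairs largely fixes (15.8% and 5.4% of all tested genes were called). The 75 that fell had medians of 2.75 at the first sampling, -0.41 at the third and -3.28 in the next year. Among them, 62 were called in well-watered leaves and 48 without the block 2 library, with the same limit. In the next year, 56 of the 75 were under 1 CPM in all 6 leaf libraries and 10 had no count at all, while 4773 and 66 of all 32307 tested genes did so. The 75 included 19 root-rich genes (25.3%, where 3.67% of tested genes were), of which 11 lie in a single run of neighbouring identifiers, and 22 leaf-rich ones (29.3%, where 9.15% of tested genes were). Outside that run, 8 of 63 were root-rich (12.7%) and 22 leaf-rich (34.9%). The classes use the level in the droughted leaves, and falls in those same libraries chose the list. A fall there lowers the leaf level, so these shares describe the genes and test nothing.

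Genes that rose also stood next to each other in the identifier order more often than tested genes did at large. The next tested identifier with the same prefix was also a gene that rose in 511 of 2610 cases (19.6%), and in 8.36% of cases over all tested genes. For the genes that fell it was 237 of 2266 (10.5%), against 7.25%. Uninterrupted runs of at least 4 genes that rose numbered 24, with 107 genes and at most 7 in a run. There was 1 such run of genes that fell, with 13 genes. Identifier order was taken as it stands and was not checked against genome positions, and near-identical copies in a run can share reads, so the members of a run are not separate observations.

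The run of 13 that fell carries the prefix MD10, includes MD10G1026620 and was singled out after its values were seen. Its log2 changes ran from -6.11 to -3.55, with a median of -3.99, and of -4.07 without the block 2 library. Summed over the run, well-watered leaves had 34, 82.5 and 29.8 CPM in blocks 1 to 3 at the third sampling, against 444, 1270 and 407 CPM at the first. Droughted leaves had 78.0, 107 and 4.94 CPM at the third sampling, against 429, 822 and 605 CPM at the first, and 12 of the 13 genes were called lower there too. These transcripts make up 12 of the 75 genes that fell at least 2-fold in all 6 pairs. In the next year the sum was at most 0.251 CPM in well-watered and at most 1.16 CPM in droughted leaves. Well-watered roots held 1860, 2240 and 1800 CPM at the third sampling and 6960, 1210 and 2150 CPM at the first, and the 2 well-watered root libraries of the next year 1680 and 201 CPM. The transcripts were thus present in well-watered roots at every sampling, while the leaves of the next year had almost none.

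A run of 5 genes that rose, with the prefix MD01, showed the opposite course and was also singled out after its values were seen. Its summed level was 38.7, 45.1 and 45.8 CPM at the third sampling, against 0.0713, 0.536 and 0.293 CPM at the first. Droughted leaves had 30.0, 35.5 and 35.5 CPM at the third sampling, against 0.213, 0.302 and 0.266 CPM at the first. The next-year leaves were higher still, at 71.1, 73.2 and 80.0 CPM in well-watered and 54.3, 53.7 and 62.1 CPM in droughted plants. All 5 genes belong to the 64 that rose at least 2-fold in all 6 pairs. At the third sampling and in the next year the blocks lay close together within each regime. At both, every droughted library lay below every well-watered one. The 5 genes were called in well-watered leaves, in droughted leaves and without the block 2 library, with median log2 changes of 8.75, 8.83 and 8.91. The early levels were at most 0.536 CPM over all 5 genes together, so the size of these changes is poorly fixed. Well-watered roots held at most 3.39 CPM at the third sampling and at most 7.06 CPM at the first.

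**Figure D5:**
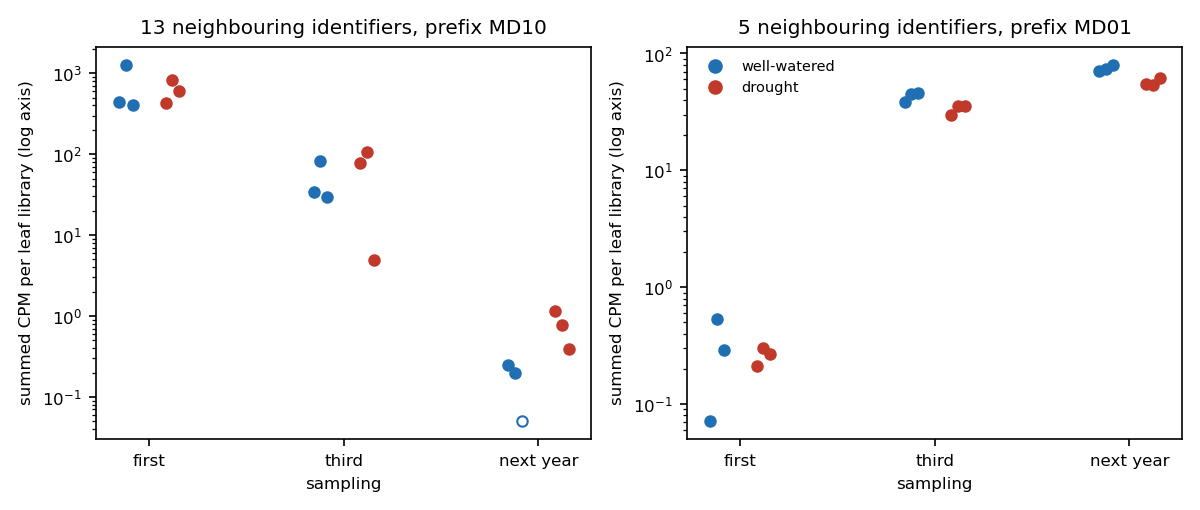
Summed CPM per leaf library (log axis) of the run of 13 genes with prefix MD10 and the run of 5 genes with prefix MD01, by sampling, with well-watered libraries in blue, droughted ones in red and an open circle for a library with 0 counts. The first run declines over the samplings to at most 1.16 CPM in the next year, and the second climbs from at most 0.536 CPM at the first sampling to at least 53.7 CPM in the next year.

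A run of 6 genes with the prefix MD03 had a median change of opposite sign in the regimes. It summed to 47.2, 92.4 and 75.3 CPM in well-watered leaves at the third sampling, against 6.24, 19.2 and 26.9 CPM at the first. Droughted leaves had 41.8, 48.6 and 38.2 CPM at the third sampling, against 75.7, 61.1 and 125 CPM at the first. The median log2 change of the run was 2.21 in well-watered and -1.32 in droughted leaves. Without the block 2 library the median in well-watered leaves was 1.72 and 3 of the 6 genes were called. In droughted leaves 1 of the 6 genes was also higher at the third sampling, and none was called higher. The run was singled out after its values were seen, from genes that were low in the early well-watered leaves.

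In roots of the same regime and sowings no gene passed the same test. Between the third and the first sampling edgeR called 0 of 33541 genes in well-watered roots (0%), with 1939 genes at an unadjusted p under 0.05, and DESeq2 called 50. Of the leaf genes that rose, 35.2% were higher in late roots, while 47.4% of all tested genes were, with a median log2 change of -0.13. Of the leaf genes that fell, 46.4% were lower in late roots, while 52.6% of all tested genes were, with a median of 0.02. The difference of the changes, leaf minus root, passed the test for 792 of 35665 genes (2.22%), 365 positive (1.02%) and 427 negative (1.2%). With RLE size factors there were 370 positive and 332 negative, and with DESeq2 1692 and 1377, so which direction held more genes depended on the scaling and the tool. The count ran from 11 without the early well-watered leaf library of block 1 to 3045 without the early root library of block 1. For MD04G1047700, named for its rise in these leaves, the difference was 4.11 (SE 0.66), given as a description.

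Few genes crossed the level of 1 CPM in every block. A total of 234 of 43603 identifiers with any count were at 1 CPM or more in all 3 late well-watered leaf libraries and below it in all 3 early ones, and 99 did the reverse. Droughted leaves had 410 and 129 such genes. Of these, 19 and 11 were shared, or 8.12% and 11.1% of the well-watered ones and 4.63% and 8.53% of the droughted ones. Of all 43603 identifiers, 0.94% and 0.296% crossed in these directions in droughted leaves, and 0.537% and 0.227% in well-watered ones. Well-watered roots had 23 and 16. By identifier prefix, the share of tested genes that rose ran from 5.62% (MD14) to 10.5% (MD05) among the numbered prefixes and was 13.2% for MD00. The share that fell ran from 4.9% (MD11) to 9.58% (MD16), so genes that changed were spread over all prefixes.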

How the data were processed

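RNA from about 50 mg of leaf or root per library was sequenced from both ends with 100 bp reads, using a library kit that keeps the strand of mRNA, per the labels' protocols. The authors deposited estimated counts per gene, in whole numbers and not normalized, for 52311 identifiers in 34 libraries. Salmon, FastQC, DESeq and DESeq2 are listed, without versions, in the submitters' processing notes, and the column names carry Salmon's file ending, per the file headers. Salmon divides reads among similar transcripts, so near-identical copies are uncertain. Genome build, annotation and settings are not given in the sources used here. No identifier (0) matched the RefSeq table of the GDT2T_hap1 assembly with its 51804 genes, so no gene name, planned gene list, marker of leaf or root, or sequence is given. For this reason 2 identifiers per direction are named, those with the largest changes among genes that met the criteria stated beside them.

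Counts were tested with edgeR 4.0.16 in R 4.3.3 (TMM, filterByExpr, glmQLFit with robust dispersions, glmQLFTest), with group and sowing block as terms, over all 18 leaf, all 16 root or all 34 libraries. A gene was called at a Benjamini-Hochberg adjusted p under 0.05. Standard errors were the log2 change over the square root of F. Log2 CPM used a prior count of 2, and CPM values were scaled by TMM over all libraries. The labels number the libraries by replicate and say that each sowing block was a replicate. The number was therefore taken as the block, which pairs same-numbered libraries. Their deviations from the group means correlated at -0.191, 0.167 and -0.19 between the third and the first sampling. Between different numbers the values ran from -0.152 to 0.235, so the same-number values were not the higher ones. Alternatives covered RLE scaling, no filter, DESeq2 1.42.0, limma 3.58.1 voom with quality weights, no block, fewer libraries in the fit and each library left out. Every pair of libraries differed by more than counting noise (chi-square per gene at least 13.9 over 561 pairs). The tests were checked on simulated data. Members, lists and rules were chosen with earlier results of these data known, and the fits without the next-year leaves, the lists chosen by fold and the runs were chosen after seeing the data.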

Additional observations from a re-analysis of the deposited data

Results flagged for a closer look

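The change between samplings differed between the regimes by a test of the difference itself (well-watered minus droughted) for 1872 genes, and between leaf and root for 792 genes. For MD06G1227300 the regimes differed by 7.45 on the log2 scale, with droughted leaves lower late in 3 of 3 blocks. For MD04G1047700 they differed by 3.43, and its changes in leaf and root by 4.11. Both genes were named for a rise in every block of the well-watered leaves, which these differences contain, so no p is given for them. Without the late well-watered leaf library of block 2 the counts were 394 and 19, and without the next-year leaves no gene passed for the regimes (edgeR, 6294 at an unadjusted p under 0.05).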

How the results depend on the processing

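Without the replicate block, edgeR called 4876 genes in well-watered leaves, 4487 of them shared with the 5100, and 69.6% of those that rose were higher in droughted leaves. Without the block every named gene kept its call. A 2-fold minimum left 2696 genes. Fits to the 6 libraries alone gave 11 calls with the block and 5 without it, and 0 for droughted leaves. First-year leaves alone gave 2157, 2383 and 0 calls for well-watered leaves, droughted leaves and their difference, and 75% and 83.0% of the genes they called higher and lower in well-watered leaves kept that direction in droughted ones. With the block 2 library also out they gave 4 calls. These fits have fewer libraries to estimate the spread. DESeq2 called 4139 for the regime difference, 3069 for leaf minus root, 50 in root and 4250 without the block 2 library. Leaf minus root was 448 without a filter. Leaving out a library gave 1739 to 5377 calls in well-watered leaves, 12 to 2535 with the block 2 library already out, 2067 to 4960 in droughted leaves, 394 to 2310 for the regime difference and 11 to 3045 for leaf minus root. Without the block 2 library, 78.3% and 85.7% of the genes called kept their direction in droughted leaves. The top-100 share, 2.14 percentage points higher at the third sampling, turned to -1.89 for the longest list of top genes tried and ran from -4.30 (without the block 2 library) to 6.03. Without both libraries of a block, 1389 (block 1), 187 (block 2) and 4752 (block 3) genes were called. The cause of these shifts was not tested. Under the other alternatives the counts stayed within 1.5 times. No named gene reversed, but the log2 changes ran from 4.03 (quality weights) to 5.80 (without the early block 2 library) for MD06G1227300, from 3.54 to 4.53 for MD04G1047700, from -5.00 to -4.06 for MD10G1026620 and from -4.90 to -3.97 for MD06G1232610. Genes near the floor of 3 counts limit fold changes.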

Other observations

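Of the late well-watered leaves, those of block 3 had the most genes standing apart from both other blocks. In block 3, 286 genes stood at least 4-fold above both other blocks and 783 at least 4-fold below. For block 2 these counts were 208 and 87, and for block 1 they were 34 and 31. In late droughted leaves block 1 had 332 above and 42 below, block 2 had 19 and 58, and block 3 had 287 and 455. Of the 286, 191 (66.8%) were also at least 4-fold above both other blocks in late droughted leaves, where 0.888% of tested genes were. In late roots it was 122 (42.7%) of well-watered and 49 (17.1%) of droughted libraries, where 1.09% and 0.495% of tested genes were. At the first sampling 3 of them stood out this way in well-watered leaves and 0 in droughted leaves, and in the next year 5 and 4. Of the 783, 104 (13.3%) were also low in late droughted leaves, where 1.41% of tested genes were. Between the samplings, 13 of the 286 (4.55%) and 46 of the 783 (5.87%) were called higher, where 8.52% of tested genes were, and 0 and 14 were called lower, where 7.27% were. The genes were chosen for a wide spread among the late well-watered leaves, which the test between samplings also uses, so nothing is read from these shares. The droughted leaves and the roots are separate libraries of the same sowing.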
